A study of Mus musculus with 2 samples.

Results

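Interferon-induced genes are the messages that cells raise when an interferon binds its receptor. The list examined here held 44 mouse genes, chosen by name, of the 27998 genes measured, and all 44 were found in the count table. Single cells were profiled by droplet RNA sequencing on the 10x Genomics platform from regenerating mammary grafts, with 1 library per group, Ctrl and Fgfr2 KO. In both groups the graft joined wild-type luminal cells, labelled red, to basal cells that had been infected with an adenovirus carrying Cre and GFP, and it was placed in cleared fat pads of juvenile female nude (nu/nu) mice. The basal cells were Fgfr2+/+ in the Ctrl group and Fgfr2 fl/fl before Cre, hence Fgfr2-null after it, in the Fgfr2 KO group. Luminal and basal donor cells alike carried the R26R mT/mG reporter, which turns from red to green after Cre. The grafts were dissected out days after surgery, so that the immune cells came from hosts that lack a thymus and most T cells but keep natural killer cells. How many host animals each library pooled was not given in the sources used here.

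Type I interferons (alpha and beta) and type III interferons (lambda) act through a transcription factor complex that includes STAT2 and IRF9, and this complex binds a DNA element called the interferon-stimulated response element (ISRE). Interferon gamma, made mainly by natural killer and T cells, acts through another element, the gamma-activated site (GAS). Ifit, Oas and Mx genes are classical targets of the first route. Guanylate-binding proteins (Gbp genes) and immunity-related GTPases (IRG genes), which attack the vacuoles of intracellular pathogens, are strongly induced by the second, in many cells with the help of the transcription factor IRF1. Many genes answer to both routes, so that the lists do not separate the ligands cleanly.

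The members were grouped by role. There were 4 transcription factors, 6 Ifit, Oas and Mx genes, 8 guanylate-binding and 7 IRG GTPase genes, 3 genes of ubiquitin-like proteins and their removal, 10 other antiviral genes and 6 regulators and others. In GENCODE M21 (GRCm38), 5 Gbp genes (Gbp2, Gbp2b, Gbp3, Gbp5 and Gbp7) lay together on chromosome 3 between 142493978 and 142638008, and 3 (Gbp4, Gbp6 and Gbp9) on chromosome 5 between 105077630 and 105293698. Of the 7 IRG genes, 6 lay on chromosome 11 between 48861968 and 58222782. The 3 Ifit genes sat within 34550694 to 34650009 on chromosome 19.

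Promoter windows of 300 bases (250 before and 50 after the start, RefSeq, GRCm38.p6) were found for 32 of the 44 members. The ISRE core was searched as GAAANNGAA on both strands and GAS as TTCNNNGAA, which is its own reverse complement. The GAA that ends either motif can belong to both. An ISRE core was present in 20 of the 32 members and in 9.76% of the 27025 genes with a RefSeq window, and GAS was present in 12 of the 32 and in 9.55% of those genes. Among the 11 GTPase members with a window, 10 held an ISRE core and 6 held GAS. Among the 5 Ifit, Oas and Mx members with a window, 3 held an ISRE core and 2 held GAS. Stretches of 70 bases are shown for 7 of the GTPase genes with an ISRE core, among them the 4 with both motifs at a shared spacing, and for 3 ISRE-bearing genes of other roles. They run 5′ to 3′ along the gene's strand, with matches of either motif in capitals.

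Igtp, chr11:58199486-58199555, + strand, 1 GAS and 1 ISRE core: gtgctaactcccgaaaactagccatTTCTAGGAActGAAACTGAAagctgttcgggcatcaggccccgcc
Irgm2, chr11:58214877-58214946, + strand, 1 GAS and 1 ISRE core: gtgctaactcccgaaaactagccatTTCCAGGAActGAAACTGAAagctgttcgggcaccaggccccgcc
Tgtp1, chr11:48992290-48992359, - strand, 1 GAS and 1 ISRE core: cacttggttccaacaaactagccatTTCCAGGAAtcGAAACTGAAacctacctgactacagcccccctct
Tgtp2, chr11:49064249-49064318, - strand, 1 GAS and 1 ISRE core: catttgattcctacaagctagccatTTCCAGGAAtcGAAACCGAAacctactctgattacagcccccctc
Gbp2, chr3:142620574-142620643, + strand, 1 ISRE core: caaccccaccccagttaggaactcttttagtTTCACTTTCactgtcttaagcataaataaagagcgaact
Gbp2b, chr3:142594680-142594749, + strand, 1 ISRE core: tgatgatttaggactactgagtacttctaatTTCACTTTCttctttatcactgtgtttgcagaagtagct
Gbp7, chr3:142530226-142530295, + strand, 2 GAS and 1 ISRE core: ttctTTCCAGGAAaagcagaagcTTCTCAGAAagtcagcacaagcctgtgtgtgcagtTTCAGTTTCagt
Ifit1, chr19:34640762-34640831, + strand, 3 ISRE cores: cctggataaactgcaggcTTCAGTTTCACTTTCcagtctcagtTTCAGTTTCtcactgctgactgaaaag
Ifit3, chr19:34583370-34583439, + strand, 3 ISRE cores: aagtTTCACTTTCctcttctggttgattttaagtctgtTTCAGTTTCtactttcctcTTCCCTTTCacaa
Isg15, chr4:156200852-156200921, - strand, 3 ISRE cores: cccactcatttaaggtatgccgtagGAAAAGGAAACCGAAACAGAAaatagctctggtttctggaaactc

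In Igtp, Irgm2, Tgtp1 and Tgtp2 the ISRE core began 11 bases after the start of GAS. This spacing was noticed in the sequences and then counted, and it occurred in 8 of the 32851 windows (0.0244%), of which these genes made up 4. The windows of Ifit1, Ifit3 and Isg15 each held 3 ISRE cores and no GAS. A match describes letters in this window and not a bound site.

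There were 268 cells with 5458515 UMIs (unique molecular identifiers, each marking 1 captured message) in the Ctrl library, and 86 cells with 1253032 UMIs in the Fgfr2 KO library. No barcode was shared between them. Cells with a UMI of Ptprc, the gene of CD45, were called immune, and the other cells were classed by whether the basal keratins Krt14 and Krt5 or the luminal keratins Krt8 and Krt18 had more UMIs. The classes held 68 Ctrl and 22 Fgfr2 KO basal-keratin cells, 117 and 31 luminal-keratin cells, and 73 and 23 immune cells, with 10 cells of each library left out. Fgfr2 itself had 32.4 CPM (counts per 1000000 UMIs; 23.4 to 43.8) in Ctrl against 21.9 CPM (8.81 to 45.2) in Fgfr2 KO basal-keratin cells, and the intervals overlapped. The 3′ tags of this platform need not lie in the deleted part of Fgfr2, so they do not check the genotype. All intervals given are exact 95% Poisson or binomial intervals that cover counting error only, and with 1 library per group no test between the groups was possible.

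The classes were checked against markers, and 2 limits showed. First, the immune class was mixed: 15 of 73 Ctrl immune cells and 1 of 23 Fgfr2 KO immune cells had at least 10 UMIs of the 4 keratins, and these held 574836 of 1247271 UMIs of the Ctrl class. The remaining 58 and 22 cells are called keratin-poor immune cells below, and their 14-gene immune list stood at 27973 and 17561 CPM. Second, the luminal-keratin class held some cells with few keratin UMIs. Under a stricter rule (at least 10 UMIs of the 4 keratins and 2 times as many of one pair) 83 Ctrl and 20 Fgfr2 KO luminal-keratin cells and 56 and 15 basal-keratin cells remained. The immune list was then at 451 and 153 CPM in luminal-keratin cells against 1122 and 1394 CPM before. The fibroblast list was at 603 and 151 CPM after the stricter rule and 1770 and 613 CPM before. In basal-keratin cells the fibroblast list was at 1134 CPM in Ctrl against 37.6 CPM in Fgfr2 KO, and at 115 and 33.2 CPM after the stricter rule. The immune list was at 441 and 426 CPM in basal-keratin cells and at 427 and 116 CPM after the stricter rule, and the luminal list at 2602 and 1440 CPM and at 2502 and 1206 CPM. Natural killer and T cell genes were near 0 in keratin cells (3.09 and 3.13 CPM in basal-keratin, 3.55 and 0 in luminal-keratin cells) and at 226 and 416 CPM in keratin-poor immune cells, where at least 10 of these UMIs were found in 2 of the 58 cells in Ctrl and in 1 of the 22 in Fgfr2 KO and the median per cell was 0. The part of these other cell types in the results was not tested. Values under the stricter rule are given below for some of the results.

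Summed over all 44 members, basal-keratin cells had 11071 CPM (10890 to 11253) in the Ctrl library against 6862 CPM (6578 to 7155) in the Fgfr2 KO library (log2 ratio -0.69, -0.76 to -0.63). Luminal-keratin cells, a class set by keratin UMIs in which the genotype of single cells was not checked, had 9523 CPM in Ctrl against 5802 CPM in Fgfr2 KO (log2 -0.72, -0.77 to -0.66). Keratin-poor immune cells had 9268 and 9034 CPM in the same order (log2 -0.037, -0.12 to 0.041). The pooled members were thus lower in both keratin classes of the Fgfr2 KO library by more than the counting error, and the pooled immune difference lay within it. The typical immune cell was not level: the median per keratin-poor immune cell was 9109 CPM in Ctrl against 5083 CPM in Fgfr2 KO, where 12 of 22 cells lay below the Ctrl lower quartile and 1 cell held 24.0% of the member UMIs. Medians per cell were 10458 and 7077 CPM in basal-keratin and 8416 and 4761 CPM in luminal-keratin cells. Over the whole immune class, mixed cells included, the sums were 9238 and 7701 CPM (log2 -0.26, -0.33 to -0.20).

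Gene by gene, a member was compared in a class when it had at least 20 UMIs over both libraries, and a ratio past 2-fold was counted. In basal-keratin cells 20 of 39 members were at least 2-fold lower in Fgfr2 KO, beside 11.2% of the 6863 genes compared, and 0 were 2-fold higher, beside 4.36%. In luminal-keratin cells 14 of 40 were 2-fold lower, beside 8.58% of 9459 genes, and 0 were 2-fold higher, beside 4.06%. In keratin-poor immune cells 3 of 30 were 2-fold lower, beside 10.1% of 4125 genes, and 3 were 2-fold higher, beside 7.95%. The whole immune class, before cells with keratin UMIs were set aside, gave 14 of 40 lower, beside 12.2%, and 2 higher, beside 7.8%. The median log2 ratio of the members was -1.02 in basal-keratin cells (-0.12 over all genes compared), -0.64 in luminal-keratin cells (-0.057 over all genes) and 0.10 in keratin-poor immune cells (-0.0048 over all genes). Under the stricter keratin rule the basal median was -1.52, 23 of 37 basal members were 2-fold lower, beside 12.8% of 6015 genes, and 19 of 40 luminal members were, beside 8.79% of 8691 genes. An interval wholly below no change, whatever the size of the ratio, was found for 25 of 39 members in basal-keratin cells, beside 9.02% of genes, and for 25 of 40 in luminal-keratin cells, beside 10.1%.

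**Figure D1:**
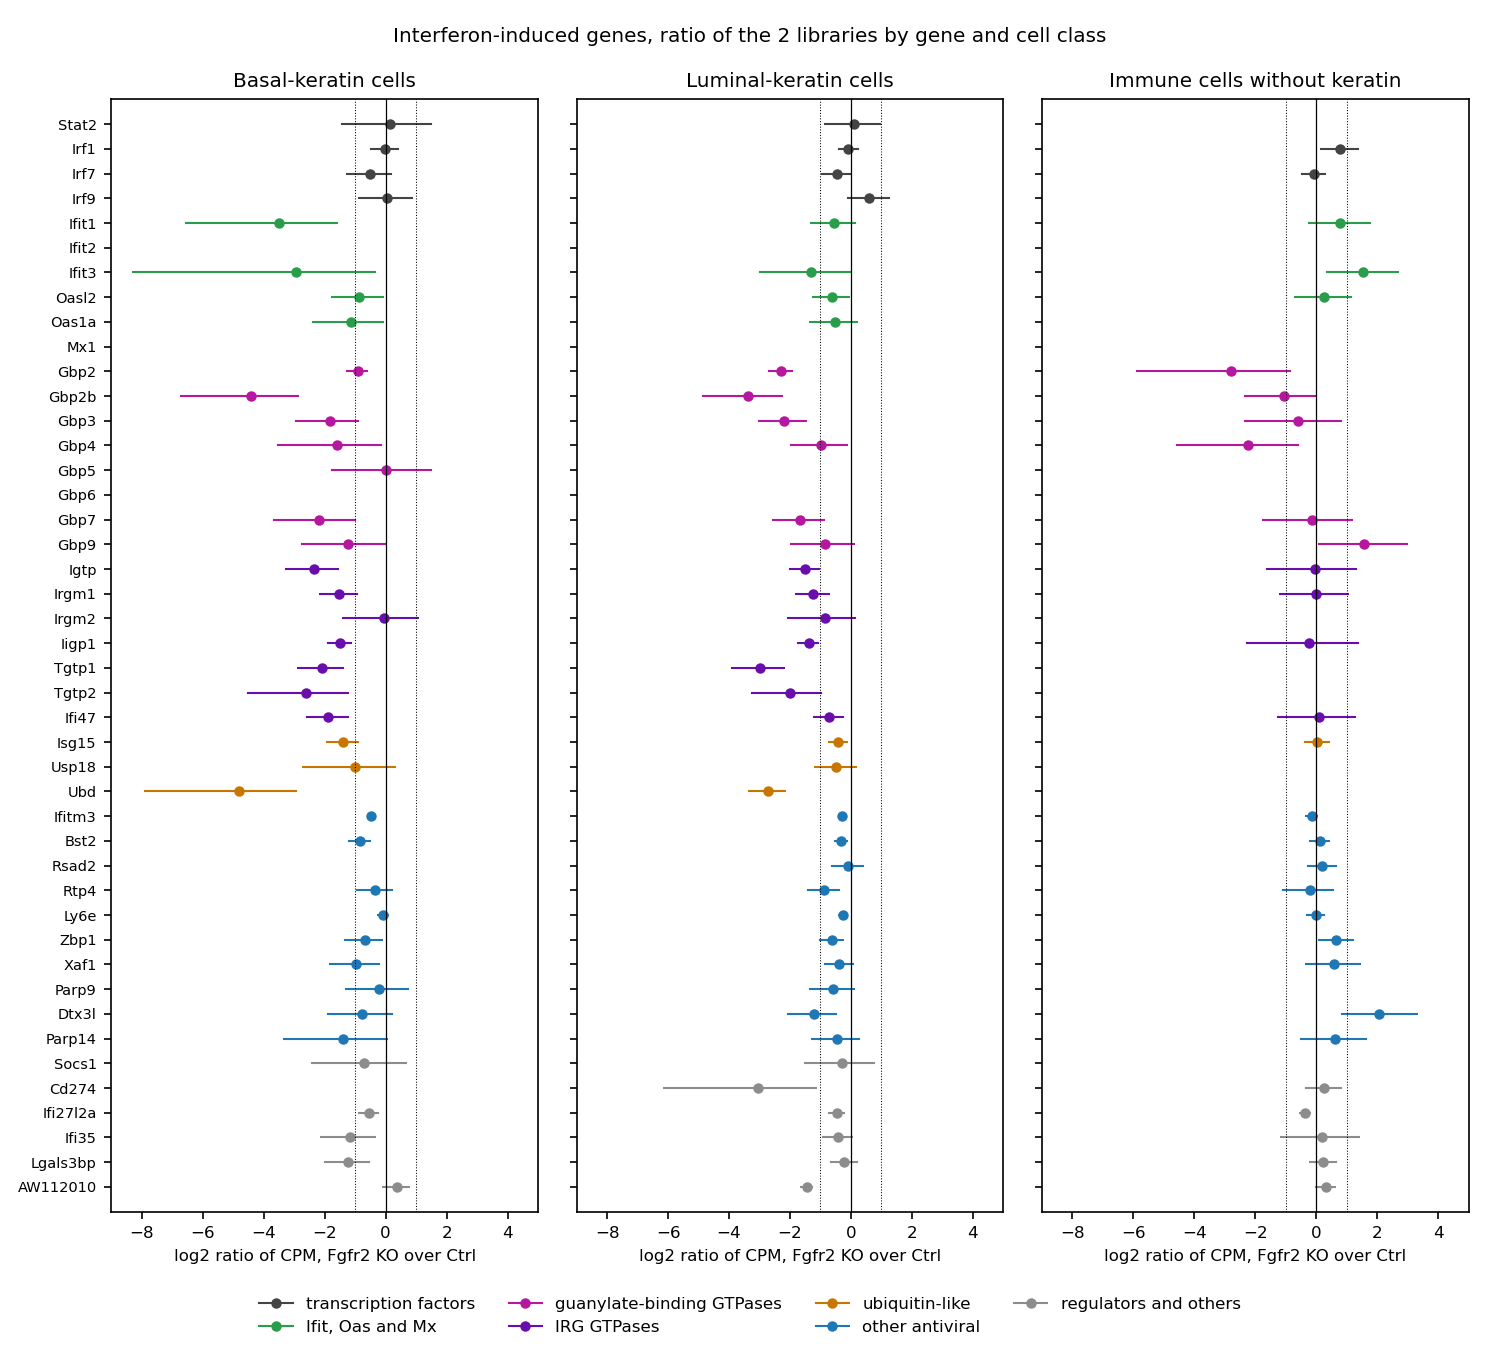
Log2 ratio of pooled CPM (Fgfr2 KO over Ctrl, horizontal axis) for each member (rows, coloured by role) in the 3 cell classes, with exact 95% counting intervals as lines; members with fewer than 20 UMIs over both libraries are left blank, and dotted lines mark 2-fold. Most GTPase genes lie left of the 2-fold line in both keratin classes (11 of 14 basal, 9 of 13 luminal, beside 11.2% and 8.58% of all genes compared). In keratin-poor immune cells 3 of 10 do, beside 10.1%. There 8 of 10 are below 0, beside 2068 of all 4125 genes, with 2 intervals wholly below 0 and 1 wholly above.

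The summed difference in keratin cells was larger for the GTPase genes than for the members as a whole. Their sum was 2658 CPM (2570 to 2748) in Ctrl against 883 CPM (783 to 992) in Fgfr2 KO basal-keratin cells (log2 -1.59, -1.77 to -1.42). In luminal-keratin cells it was 1890 and 575 CPM (log2 -1.72, -1.88 to -1.56). Strictly classed cells gave 2798 and 584 CPM in the basal class (log2 -2.26) and 2126 and 513 CPM in the luminal class (log2 -2.05). It stood at 528 CPM (474 to 586) and 379 CPM (296 to 478) in keratin-poor immune cells (log2 -0.48, -0.87 to -0.11). The counting intervals of the libraries did not overlap in the keratin classes, and those of the immune cells overlapped narrowly. All other members together, without the Ifit, Oas, Mx and GTPase genes, differed less, with log2 ratios of -0.47 in basal-keratin, -0.54 in luminal-keratin and -0.036 in keratin-poor immune cells. Of the 10580 Ctrl basal-keratin UMIs in this sum, Ifitm3 held 5487 and Ly6e 1619. Smaller groups did not all differ less: the ubiquitin-like sum was at log2 -1.89 in basal-keratin and -1.15 in luminal-keratin cells. The Ifit, Oas and Mx sum was at -1.43 and -0.63 in the same order.

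Cell by cell the libraries overlapped widely. The GTPase sum per basal-keratin cell had a median of 2125 CPM (quartiles 540 and 4880, highest 10356) in Ctrl against 373 CPM (quartiles 175 and 962, highest 3407) in Fgfr2 KO, and 2 of 22 Fgfr2 KO cells lay above the Ctrl median. Per luminal-keratin cell the median was 584 CPM (quartiles 244 and 2459) in Ctrl against 161 CPM (quartiles 80.5 and 626) in Fgfr2 KO, with 8 of 31 cells above the Ctrl median. Under the stricter rule 0 of 15 basal and 3 of 20 luminal cells lay above it. Medians in keratin-poor immune cells were 317 and 261 CPM, and 10 of 22 Fgfr2 KO cells lay above the Ctrl median. Median depth was close in basal-keratin cells (15578 and 16372 UMIs per cell), and lower in Fgfr2 KO luminal-keratin cells (20160 and 15029) and keratin-poor immune cells (10148 and 6591).

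**Figure D2:**
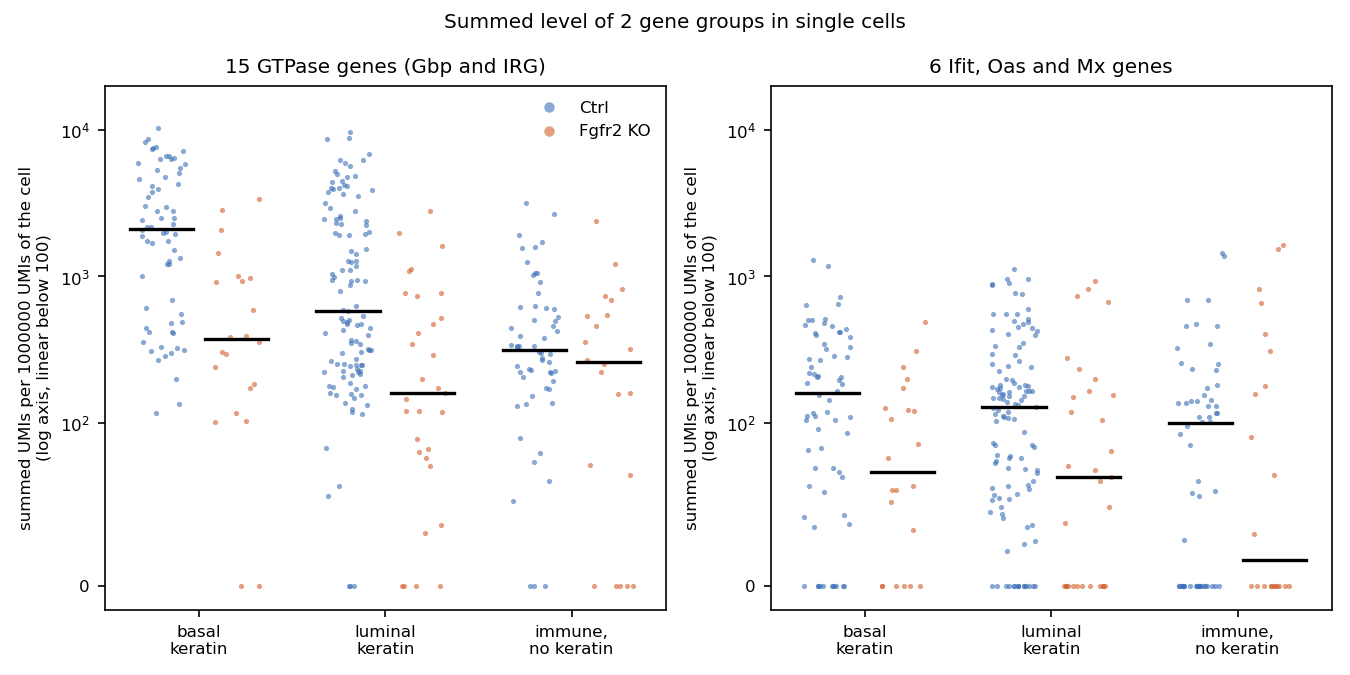
Summed UMIs per 1000000 UMIs of each cell (vertical log axis, linear below 100) for the 15 GTPase genes on the left and the 6 Ifit, Oas and Mx genes on the right, by class and library; each point is 1 cell and bars are medians. The basal-keratin medians of the GTPase sum are 2125 in Ctrl and 373 in Fgfr2 KO, and the immune medians (317 and 261) lie side by side.

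None of the 4 transcription factors of the pathway was 2-fold lower in any class, of which 2 were compared in keratin-poor immune cells. For so few genes this lies near the shares of all genes (11.2% in basal-keratin, 8.58% in luminal-keratin and 10.1% in keratin-poor immune cells). Irf1, which drives GTPase genes downstream of interferon gamma, had 179 CPM in Ctrl against 175 CPM in Fgfr2 KO basal-keratin cells and 177 and 167 CPM in luminal-keratin cells, with intervals that included no change. Strictly classed luminal cells gave 198 and 155 CPM (log2 -0.35, -0.71 to -0.013). Irf7, which amplifies the type I response, had 89.5 and 62.6 CPM in basal-keratin and 105 and 76.2 CPM in luminal-keratin cells (log2 -0.52, -1.28 to 0.18, and -0.47, -0.94 to -0.021), and in strictly classed luminal cells it was at -0.66. Irf9 and Stat2, partners in the ISRE-binding complex, had log2 ratios of 0.044 and 0.15 in basal-keratin cells and 0.61 and 0.091 in luminal-keratin cells, and each interval included 0. In immune cells the values depended on the keratin-positive cells. Irf1 had 109 and 187 CPM in keratin-poor immune cells (log2 0.78, 0.16 to 1.38), but 120 and 155 CPM in the whole immune class, where the interval included 0 (log2 0.37, -0.16 to 0.88). Irf9 had 26 and 17 UMIs in the whole immune class (log2 1.59, 0.61 to 2.52), and of these only 8 and 9 UMIs lay in keratin-poor immune cells, too few for comparison there.

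Among the Ifit, Oas and Mx genes, which block viral RNA and its translation, the libraries differed most in basal-keratin cells. Ifit1, a sensor of foreign RNA ends, had 91 UMIs (70.3 CPM) in Ctrl against 2 UMIs (6.26 CPM) in Fgfr2 KO basal-keratin cells (log2 -3.49, -6.56 to -1.59). In luminal-keratin cells it had 47.6 and 32.4 CPM (log2 -0.55, -1.31 to 0.13), and under the stricter rule 50.7 and 18.7 CPM (log2 -1.44). Ifit3, its binding partner, had 31 UMIs against 1 in basal-keratin and 57 against 5 in luminal-keratin cells, and the basal interval included no change under the stricter rule (-7.93 to 0.029). Ifit3 was the other way round in keratin-poor immune cells, with 16 UMIs (23.8 CPM) in Ctrl against 13 UMIs (69.4 CPM) in Fgfr2 KO (log2 1.54, 0.37 to 2.69). Ifit3 has a near-identical neighbour, Ifit3b, and reads of the pair may be split between them. Oasl2 and Oas1a, of the family of enzymes that activate RNase L, had log2 ratios of -0.87 and -1.13 in basal-keratin and -0.64 and -0.53 in luminal-keratin cells. In strictly classed basal cells they were at -0.68 and -0.98, with intervals that included 0. Ifit2 and Mx1, the latter a GTPase that traps viral ribonucleoproteins, had too few UMIs for comparison in any of these classes.

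Of the guanylate-binding genes, Gbp2b had the lowest log2 ratio in both keratin classes. It had 261 UMIs (202 CPM) in Ctrl against 3 UMIs (9.39 CPM) in Fgfr2 KO basal-keratin cells (log2 -4.42, -6.71 to -2.86), and 288 UMIs (102 CPM) and 6 UMIs (9.72 CPM) in luminal-keratin cells (log2 -3.39, -4.85 to -2.25). Strictly classed basal cells held 236 Gbp2b UMIs in Ctrl against none among 15 cells of the Fgfr2 KO library. This puts it 18.1-fold lower at a floor of 3 counts per group, with an interval that reached up to log2 -3.87. Gbp2b was also the only member at least 2-fold lower in both keratin classes and in keratin-poor immune cells, where it had 89.2 and 42.7 CPM with an interval (-2.34 to 0.0064) that just included no change. In strictly classed luminal cells it had 263 UMIs against 2 (log2 -4.97, -8.02 to -3.10). Gbp2 had 533 and 282 CPM in basal-keratin cells (log2 -0.92, -1.25 to -0.60) and 489 and 98.9 CPM in luminal-keratin cells (log2 -2.31, -2.70 to -1.94). One Fgfr2 KO cell held 38.9% of the basal Gbp2 UMIs, and the stricter rule gave 526 and 95.3 CPM (log2 -2.46). Gbp2 and Gbp2b are close copies, and counting may have moved reads between them.

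Gbp3 and Gbp7 were lower in both keratin classes. Gbp3 had 112 CPM in Ctrl against 31.3 CPM in Fgfr2 KO basal-keratin cells (log2 -1.84) and 120 and 25.9 CPM in luminal-keratin cells (log2 -2.21). Gbp7, whose promoter window above holds 2 GAS matches, had 84.9 and 18.8 CPM in basal-keratin (log2 -2.18) and 72.1 and 22.7 CPM in luminal-keratin cells (log2 -1.67). Each of these intervals lay below 0, and in strictly classed basal cells Gbp7 had 98 UMIs against 3 (log2 -2.91, -5.21 to -1.32). Gbp4 and Gbp9 were 2-fold lower in basal-keratin cells (log2 -1.60 and -1.23) and at -0.98 and -0.84 in luminal-keratin cells. Under the stricter rule Gbp4 had 98 UMIs against 2 in luminal cells (log2 -3.55, -6.61 to -1.65). In basal cells it had 46 UMIs against none, 3.52-fold lower at the floor of 3 counts, with an interval up to log2 -1.46. Gbp9 had 45 UMIs against 1 in strictly classed basal cells (log2 -3.37, -8.70 to -0.82) and was at -0.76 in luminal cells. Gbp5 had 20 and 5 UMIs in basal-keratin cells (15.4 and 15.7 CPM), and Gbp6 had too few UMIs in any class. Among keratin-poor immune cells Gbp2 (74.4 and 10.7 CPM) and Gbp4 (75.8 and 16.0 CPM) were lower and Gbp9 (16.4 and 48.0 CPM) was higher in Fgfr2 KO, each with an interval that did not include no change.

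The IRG genes, which encode GTPases of the vacuole membrane (effectors such as Iigp1, Tgtp1 and Tgtp2) and their regulators (Igtp, Irgm1 and Irgm2), were lower in keratin cells of the Fgfr2 KO library with 1 exception. Iigp1 had 781 UMIs (603 CPM) in Ctrl against 68 UMIs (213 CPM) in Fgfr2 KO basal-keratin cells (log2 -1.50, -1.88 to -1.14), and 361 and 138 CPM in luminal-keratin cells (log2 -1.39, -1.73 to -1.07). Igtp had 208 and 40.7 CPM in basal-keratin (log2 -2.35, -3.28 to -1.55) and 184 and 64.8 CPM in luminal-keratin cells (log2 -1.51, -2.01 to -1.04), and strictly classed basal cells had 234 UMIs against 4 (log2 -3.75). Tgtp1 had 240 and 56.4 CPM in basal-keratin (log2 -2.09) and 168 and 21.1 CPM in luminal-keratin cells (log2 -3.00). Its near-identical copy Tgtp2 had 100 and 4 UMIs in basal-keratin (log2 -2.62) and 146 and 8 UMIs in luminal-keratin cells. Strictly classed cells had 93 and 2 (log2 -3.42) and 124 and 2 (log2 -3.89) Tgtp2 UMIs, and the split between the pair is uncertain.

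Irgm1 had 234 and 81.4 CPM in basal-keratin and 127 and 53.5 CPM in luminal-keratin cells (log2 -1.52 and -1.25). Ifi47 had 242 and 65.7 CPM in basal-keratin cells (log2 -1.88) and 115 and 69.7 CPM in luminal-keratin cells (log2 -0.73, -1.22 to -0.27). The exception was Irgm2, with 34 and 8 UMIs in basal-keratin cells (log2 -0.068, -1.39 to 1.07) and 26.6 and 14.6 CPM in luminal-keratin cells (log2 -0.87, -2.05 to 0.13), and its promoter window carries the same motif pair as that of Igtp. Counts were low in keratin-poor immune cells, where 4 of the 7 IRG genes could be compared. There Igtp had 22 and 6 UMIs (32.7 and 32.0 CPM) and Irgm1 36 and 10 UMIs (53.5 and 53.4 CPM). Iigp1 had 17 and 4 UMIs (25.3 and 21.3 CPM) and Ifi47 27 and 8 UMIs (40.2 and 42.7 CPM). Each of these differed by less than counting error, and the sum over the IRG genes was at log2 -0.055 with a wide interval (-0.66 to 0.51). The basal keratin message Krt14 stood at 90.7 CPM in Ctrl against 26.7 CPM in Fgfr2 KO keratin-poor immune cells. The immune gene Tyrobp stood at 36.9 and 9.33 CPM in strictly classed luminal cells. Other genes differed in direction: Epcam stood at 22.3 and 85.4 CPM and Krt8 at 98.2 and 96.1 CPM in keratin-poor immune cells, and Tyrobp at 30.9 and 65.7 CPM in basal-keratin and 116 and 130 CPM in luminal-keratin cells before the stricter rule. The part of this message in the results was not tested.

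**Figure D3:**
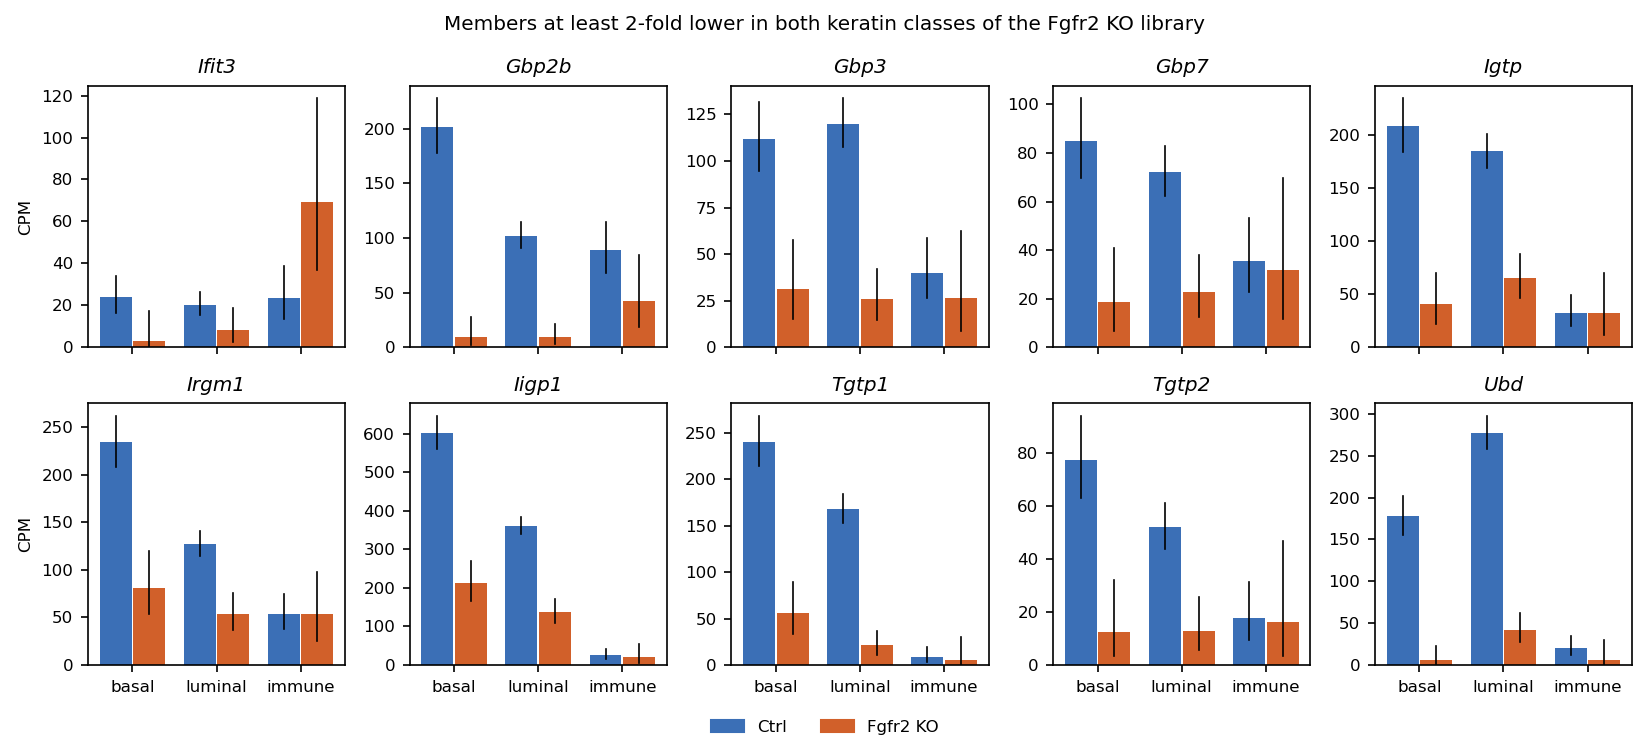
Pooled CPM (vertical axis, 1 scale per gene) in Ctrl and Fgfr2 KO for the 10 members at least 2-fold lower in both keratin classes, by cell class (immune means keratin-poor immune cells); lines are exact 95% Poisson intervals. Ctrl bars stand above Fgfr2 KO bars in both keratin classes for each gene, for example 603 against 213 CPM for Iigp1 in basal-keratin cells, and the immune bars differ in direction, with Gbp2b at 89.2 against 42.7 CPM and Ifit3 at 23.8 against 69.4 CPM.

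All 3 ubiquitin-like members were at least 2-fold lower in basal-keratin cells, beside 11.2% of all genes, and 1 of 3 was in luminal-keratin cells, beside 8.58%. Ubd, which encodes FAT10, a tag for degradation that interferon gamma and tumour necrosis factor induce together, had 230 UMIs (178 CPM) in Ctrl against 2 UMIs (6.26 CPM) in Fgfr2 KO basal-keratin cells (log2 -4.83, -7.88 to -2.96), the lowest log2 ratio among the 39 members compared there. Under the stricter rule it had 151 UMIs against 2 (log2 -4.12, -7.17 to -2.24). In luminal-keratin cells it had 278 and 42.1 CPM (log2 -2.72, -3.34 to -2.16), and 1 cell held 53.8% of the Fgfr2 KO UMIs. Isg15, a ubiquitin-like protein conjugated during the type I response, had 314 and 119 CPM in basal-keratin cells (log2 -1.40, -1.92 to -0.92) and 231 and 173 CPM in luminal-keratin cells (log2 -0.41, -0.72 to -0.11). In strictly classed luminal cells Isg15 had 228 and 95.1 CPM (log2 -1.26), and in keratin-poor immune cells 369 and 379 CPM. Usp18, the protease that removes Isg15, had log2 ratios of -1.02 in basal-keratin and -0.49 in luminal-keratin cells, with intervals that included 0.

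Other antiviral genes differed less. Ifitm3, a membrane protein that hinders viral entry, had 4236 and 3055 CPM in basal-keratin (log2 -0.47, -0.57 to -0.37) and 2112 and 1716 CPM in luminal-keratin cells (log2 -0.30). Bst2 (tetherin), which holds budding virus at the cell surface, had 446 and 247 CPM in basal-keratin (log2 -0.85) and 502 and 404 CPM in luminal-keratin cells (log2 -0.32). Ly6e had 1250 and 1168 CPM in basal-keratin cells, within counting error. Of the 9 compared in basal-keratin cells, Parp14 was the 1 that was 2-fold lower, beside 11.2% of all genes, and its interval included no change (log2 -1.41, -3.35 to 0.054). Of the 10 compared in luminal-keratin cells, Dtx3l (log2 -1.22), a ubiquitin ligase that pairs with Parp9, was the 1, beside 8.58%. In strictly classed basal cells Dtx3l was at -1.76, and in strictly classed luminal cells Rtp4 was at -1.34. Dtx3l was higher in Fgfr2 KO among keratin-poor immune cells (17.9 and 74.7 CPM). Rsad2 (viperin) had 69.9 and 64.8 CPM in luminal-keratin cells, but 1 cell held 55.0% of its Fgfr2 KO UMIs and the stricter rule gave 68.4 and 5.60 CPM (log2 -3.61). Zbp1, Xaf1, Rtp4 and Parp9 had log2 ratios between -0.97 and -0.22 in basal-keratin and between -0.88 and -0.38 in luminal-keratin cells.

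Among the regulators, Cd274 (PD-L1), an interferon gamma target that restrains T cells, had 76 UMIs (27.0 CPM) in Ctrl against 2 UMIs (3.24 CPM) in Fgfr2 KO luminal-keratin cells (log2 -3.06, -6.13 to -1.15), and 156 and 187 CPM in keratin-poor immune cells. Strictly classed luminal cells held 58 Cd274 UMIs against 1 (log2 -3.79, -9.12 to -1.25). AW112010 had 1451 and 528 CPM in luminal-keratin cells (log2 -1.46, -1.62 to -1.29). In basal-keratin cells it had 154 and 197 CPM (log2 0.36), but 1 cell held 47.6% of the Fgfr2 KO UMIs and another 45.2% of the Ctrl UMIs, and the direction turned under the stricter rule, at 93.2 and 16.6 CPM (log2 -2.49). Lgals3bp and Ifi35 were 2-fold lower in basal-keratin (log2 -1.24 and -1.16) and at -0.22 and -0.43 in luminal-keratin cells. Ifi27l2a had 461 and 316 CPM in basal-keratin, 368 and 266 CPM in luminal-keratin and 2525 and 1937 CPM in keratin-poor immune cells. Socs1, the feedback inhibitor of the JAK kinases, had log2 ratios of -0.70 and -0.28 in the keratin classes, with intervals that included 0.

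Across the classes, 10 members were at least 2-fold lower in both keratin classes, namely Ifit3, Gbp2b, Gbp3, Gbp7, Igtp, Irgm1, Iigp1, Tgtp1, Tgtp2 and Ubd. They were 10 of 38 members compared in both, beside 1.61% of the 6768 genes compared in both. With keratin-poor immune cells as the third class, 1 of 28 members was 2-fold lower in all 3, beside 0.44% of 3639 genes, and 17 members were 2-fold lower in none of the classes in which they were compared.

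The GTPase genes were also set against the Ifit, Oas and Mx genes as a ratio of UMIs, and this balance was lower in Fgfr2 KO by more than counting error in luminal-keratin cells. In Ctrl luminal-keratin cells there were 9.91 GTPase UMIs for each Ifit, Oas or Mx UMI (9.07 to 10.9), and in Fgfr2 KO 4.67 (3.64 to 6.07), a log2 difference of -1.09 (-1.47 to -0.69), or -0.90 without the cell of each library that held the most Ifit, Oas and Mx UMIs. In basal-keratin cells the ratios were 10.9 and 9.72 (log2 -0.16, -0.74 to 0.47), and the Ifit, Oas and Mx sum there was 245 and 90.8 CPM (log2 -1.43, -2.03 to -0.88). The stricter basal class gave 11.1 and 5.64 (log2 -0.98, -1.63 to -0.28). Pooled ratios in keratin-poor immune cells were 3.32 and 1.32 (log2 -1.33, -1.96 to -0.70), with an Ifit, Oas and Mx sum of 159 and 288 CPM (log2 0.86, 0.36 to 1.34). These rested on few cells: of those 54 Fgfr2 KO UMIs 1 cell held 42.6%, and leaving out that cell and its Ctrl counterpart, a choice made after seeing the data, gave 3.98 and 2.03 (log2 -0.97, -1.71 to -0.21). The median of the Ifit, Oas and Mx sum per cell was 99.9 CPM in Ctrl against 15.9 CPM in Fgfr2 KO, opposite in direction to the pooled sum. These medians lay near the floor, since 21 of 58 Ctrl and 11 of 22 Fgfr2 KO cells had none of these UMIs. Median depth was also lower in Fgfr2 KO (10148 and 6591 UMIs per cell), and its part in the medians was not tested. The GTPase medians per cell were closer, at 317 and 261 CPM. The whole immune class gave 6.95 and 1.42 (log2 -2.29), and its Ctrl value included the 15 keratin-positive cells, whose GTPase sum was 2211 CPM. These are ratios of UMIs compared between libraries, and they do not compare levels between genes.

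**Figure D4:**
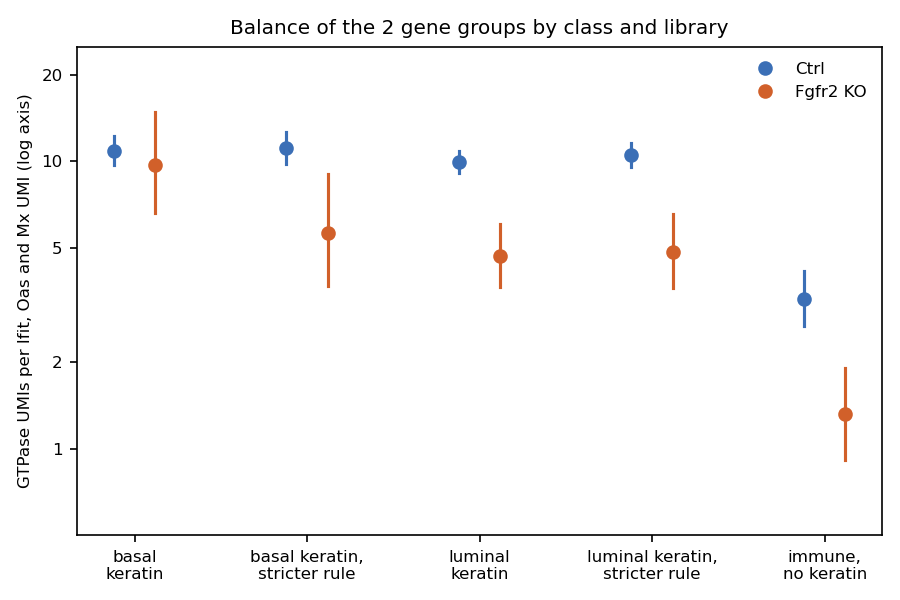
GTPase UMIs per Ifit, Oas and Mx UMI (vertical log axis) in Ctrl and Fgfr2 KO for the keratin classes under the main and the stricter rule and for keratin-poor immune cells; lines are exact 95% counting intervals. Fgfr2 KO lies below Ctrl in luminal-keratin cells (4.67 against 9.91) and in keratin-poor immune cells (1.32 against 3.32, where 1 cell holds 42.6% of the Fgfr2 KO Ifit, Oas and Mx UMIs), and in basal-keratin cells the intervals separate only under the stricter rule (5.64 against 11.1).

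Within the Ctrl library the GTPase sum was higher in keratin cells than in immune cells. Basal-keratin cells stood above luminal-keratin cells (log2 0.49, 0.43 to 0.55) and above keratin-poor immune cells (log2 2.33, 2.17 to 2.49), and luminal-keratin cells stood above keratin-poor immune cells (log2 1.84). In the Fgfr2 KO library the same pooled differences were 0.62, 1.22 and 0.60, but the luminal-keratin median per cell (161 CPM) was below that of keratin-poor immune cells (261 CPM), and 1 luminal-keratin cell held 25.6% of the GTPase UMIs. The sum over all members was closer between classes in Ctrl, with basal-keratin over keratin-poor immune at 0.26 and luminal-keratin over keratin-poor immune at 0.039 (-0.00056 to 0.079). In Fgfr2 KO the pooled sums had another order, with basal-keratin and luminal-keratin cells below keratin-poor immune cells (log2 -0.40 and -0.64). By the medians per cell given above, basal-keratin cells were the highest in Fgfr2 KO. Basal-keratin over the whole immune class in Fgfr2 KO was -0.17, and 0.014 without the top cell of each class.

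Other genes of the pathway, from lists of names, were read beside the members. Of 50 further interferon-induced genes 47 were in the table. In basal-keratin cells 10 of 31 compared were 2-fold lower and 0 higher, with a median log2 ratio of -0.66, and in luminal-keratin cells 5 of 43 were lower and 0 higher, with a median of -0.55. Beside the backgrounds of 11.2% and 8.58% the luminal count was not far from that of all genes, and under the stricter rule it was 17 of 40, beside 8.79%, with 17 of 28 in the basal class, beside 12.8%. The immunoproteasome subunits Psmb8, Psmb9 and Psmb10, which shape peptides for MHC class I, had log2 ratios of -0.48, -0.17 and -0.70 in basal-keratin and -0.66, -0.50 and -0.60 in luminal-keratin cells. Among keratin-poor immune cells 3 of 25 were lower and 2 higher, near the shares of all genes there (10.1% and 7.95%), with a median of 0.26.

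The receptors and kinases did not share the direction of the members in keratin cells. Their median log2 ratios were 0.020 and 0.050, with 4 of 7 compared in basal-keratin and 5 of 8 in luminal-keratin cells above 0. In each class 0 were 2-fold lower, which for so few genes lies near the shares of all genes (11.2% and 8.58%). Only 1 (Ifnar1, in basal-keratin cells, with 14 and 9 UMIs) was 2-fold higher, beside 4.36% of all genes, and its interval included 0. Ifngr1 and Ifngr2, the chains of the interferon gamma receptor, had log2 ratios of 0.23 and 0.020 in basal-keratin and -0.42 and -0.46 in luminal-keratin cells, with intervals that included 0. The keratin-poor immune cells had all 7 compared above 0 (median 0.60), with the highest ratio for Ifngr1 with 43.1 and 128 CPM (log2 1.57, 0.73 to 2.40). The inhibitor Socs3 was higher in Fgfr2 KO in basal-keratin (371 and 614 CPM), luminal-keratin (160 and 217 CPM) and keratin-poor immune cells (164 and 310 CPM), each with an interval above 0, but the interval in strictly classed luminal cells included no change (log2 0.25, -0.10 to 0.59). Of the 4 negative regulators compared in basal-keratin cells, Cish was 2-fold lower (27 and 2 UMIs, with an interval that included 0), beside 11.2% of all genes. Socs2 was 2-fold higher there (37 and 23 UMIs), beside 4.36%. Of the 6 in luminal-keratin cells 3 were below 0 and 3 above. The 10 interferon genes searched were almost without UMIs: Ifng had 3 UMIs, all in Ctrl keratin-poor immune cells, and Ifnb1 had 10 and 1 in the whole immune class and 5 and 1 in luminal-keratin cells. At this depth a difference in the ligands was not detectable.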

How the data were processed

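Raw UMI counts per gene and cell were deposited by the authors as 1 table of both libraries; per the labels and the submitters' processing notes, Cell Ranger 2.1.1 and mm10 were used, and the study's methods name an aggregation step of Cell Ranger, whose depth setting was not given in the sources used here. The start of each column name gave its library, and 0 columns were left unmapped. All 354 cells were kept, and doublets were not removed (Scrublet called 3 Ctrl and 1 Fgfr2 KO cells). Within a class and library, the pooled UMIs of a gene were scaled to all pooled UMIs (CPM). Ratios have exact conditional binomial 95% intervals. A gene needed 20 UMIs over both libraries, a call was 2-fold, and a ratio against 0 UMIs is set at a floor of 3 counts. The interval code was tested on simulated counts. Tools were Python 3.11.15, numpy 2.4.6, scipy 1.17.1 and pandas 2.3.3, with scanpy 1.11.5 for Scrublet.

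With 1 library per group, no model across genes was fitted and no p-value is given; the planned design held no test. Every member was described by role where it had at least 20 UMIs, and genes outside the list were named only from written lists (interferon-induced genes, ligands, receptors and kinases, negative regulators) and marker lists. The members and lists were chosen with earlier results of these data known. The split of immune cells by keratin UMIs was added after the data were seen.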

Additional observations from a re-analysis of the deposited data

How the results depend on the processing

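No paired analysis was possible because each group had 1 library. The member sum stayed below 0 in both keratin classes under all 11 alternatives. The sum (Fgfr2 KO over Ctrl, log2) in basal-keratin cells was -0.80 with immune cells also called by markers, -0.59 without the immune filter, -0.76 with equal weight per cell and -0.57 scaled by the median ratio. In luminal-keratin cells it was -0.93 under stricter keratin classes, -0.91 with immune cells also called by markers, -0.60 without the immune filter, -0.60 with equal weight, -0.61 in thinned cells, -0.65 without mitochondrial and ribosomal UMIs, -0.66 scaled by the median ratio and -0.77 without cells bearing stromal markers. In the immune class it was -0.44 without the top cell of each class and library, -0.19 with equal weight, -0.12 in thinned cells and -0.037 without keratin-positive cells. The basal median was -1.52 under stricter classes. The immune median was -0.71 without the top cell and 0.10 without keratin-positive cells, where 3 members were 2-fold lower. A counting interval in place of 2-fold called 25 luminal members lower, beside 10.1% of all genes by the same rule.

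The GTPase against Ifit, Oas and Mx difference in basal-keratin cells was -0.98 under stricter classes, -0.80 with equal weight and -0.92 in thinned cells. In luminal-keratin cells it was -1.48 with equal weight. In the immune class it was -1.56 without the top cell, -1.60 with equal weight and -1.33 without keratin-positive cells.

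Between classes, with the whole immune class, the Ctrl member sum of basal over luminal cells was 0.17 under stricter classes, 0.28 with immune cells also called by markers, 0.11 without the immune filter, 0.27 without mitochondrial and ribosomal UMIs and 0.31 without stromal-marker cells. Basal over immune in Ctrl was 0.38, 0.16 and 0.40 by markers, without the filter and without mitochondrial and ribosomal UMIs. Luminal over immune in Ctrl was 0.084 under stricter classes, 0.097 by markers, 0.084 without the top cell and 0.12 without mitochondrial and ribosomal UMIs, and it reversed to -0.0015 with equal weight and -0.042 without stromal-marker cells. In Fgfr2 KO, basal over luminal was 0.39 under stricter classes, 0.39 by markers, 0.12 without the filter, 0.16 without the top cell, 0.0775 with equal weight, 0.068 in thinned cells and 0.38 without stromal-marker cells. Basal over immune in Fgfr2 KO was -0.33 with equal weight, -0.36 in thinned cells, -0.051 without mitochondrial and ribosomal UMIs and -0.40 without keratin-positive cells, and it reversed to 0.014 without the top cell. Luminal over immune in Fgfr2 KO was -0.58 under stricter classes, -0.50 by markers, -0.29 without the filter, -0.15 without the top cell, -0.31 without mitochondrial and ribosomal UMIs, -0.64 without keratin-positive cells and -0.55 without stromal-marker cells. Among single members, Ly6e (-0.0083) and Ifi35 (0.20) reversed in immune cells without keratin-positive cells. The alternatives without keratin-positive immune cells and without stromal-marker cells were added after the data were seen. The causes were not tested. With 1 library per group, no spread between animals could be measured.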
